A study of Drosophila melanogaster with 12 samples.

Results

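Transcript levels in heads of adult tim01 flies at 18 °C were set against those at 25 °C at the same clock hours. The arrays for this comparison were chosen by their labels: CA2, CA6 and CA10 at 18 °C, and AA2, AA6 and AA10 at 25 °C, 6 of the 12 arrays in the series. All flies were y w; tim01, so every group lacks the timeless protein that the molecular clock needs, and the 25 °C arrays differ from the 18 °C arrays in temperature and in the day of sampling but not in genotype. The flies had been kept in darkness under a daily thermocycle, 12 h cold (18 °C) and 12 h warm (25 °C). The CA arrays sampled the last cycle and the AA arrays the next day, when the temperature stayed at 25 °C. The 2, 6 and 10 h points fall in the cold part of the cycle, the cryophase, on the CA day and in the subjective cryophase on the AA day. The other 6 arrays, at 14, 18 and 22 h, were at 25 °C on both days. Each array holds RNA from pooled heads and each hour and day has 1 array, so the 3 arrays of a group are 3 hours and not repeats of 1 time point. Temperature and day cannot be told apart at the 3 cold hours.

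In the fly clock, the proteins CLK and CYC activate per, tim, vri and Pdp1, and the PER and TIM proteins return to block CLK and CYC. VRI represses Clk transcription and PDP1 activates it. The tim01 flies lack this feedback. Heat shock proteins and chaperones fold other proteins, and their genes are known for their response to warming. The values are log2 signals after robust multi-array averaging (RMA), so a difference of 1 is a doubling.

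Head tissue was present on all 6 arrays. The mean of 20 photoreceptor genes lay between 7.95 and 8.13 on these arrays, against array medians of 5.18 to 5.22. Transcripts of other body parts were not even across them. The mean of 40 genes of the male reproductive tract was 3.94, 4.31 and 3.93 on CA2, CA6 and CA10, and 4.30, 4.60 and 3.86 on AA2, AA6 and AA10. Digestive protease genes of the gut followed, with means of 5.26, 5.54 and 5.29 at 18 °C and 5.63, 5.52 and 5.22 at 25 °C for 45 genes. CA6, AA2 and AA6 thus carried more signal from these tissues than CA2, CA10 and AA10, and its part in the differences below was not tested. One warm-hour array, CA18, stood apart with a mean of 7.91 for the added control transcripts against 8.65 to 9.13 on the others. CA18 is not among the 6 arrays of the cold hours. It enters the estimate of the spread, every warm-hour difference and the contrast of cold with warm hours, so warm-hour values that move by over 1.5 times without it are given both ways. Those of Pgk and of the other probe set that passed in the warm hours are given with CA18 only.

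No probe set passed an adjusted p of 0.05 in limma over all 13966 probe sets, in either direction (0.0% higher and 0.0% lower). At an unadjusted p under 0.05 there were 228 higher at 18 °C (1.63%) and 266 lower (1.9%), and 208 of the first and 235 of the second had the same direction at all 3 hours. The 3 arrays at 18 °C lay above all 3 arrays at 25 °C for 4.15% of probe sets and below them for 3.73%. The median standard error of a difference was 0.09 and the median half-width of its 95% interval was 0.20. A mean difference over 1 was seen for 6 probe sets, among them Cyp4g1 (-1.44), the male tract gene EbpII (-1.11) and a dim probe set of tim (1.30). With 1 probe set kept per gene, 10843 genes were measured, of which 48.9% were higher at 18 °C, and the median difference was -0.0023. Among them 1.43% were higher and 2.14% lower at an unadjusted p under 0.05. For 3.78% of genes the 18 °C arrays all lay above, and for 4.14% all below. A gene was higher at all 3 hours in 9.88% of cases and lower at all 3 in 9.98%.

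The smallest p values among the clock transcripts, though not for every tim probe set, were those of tim, vri, per and Clk. The tim probe set 151485_s_at, which had the smallest adjusted p of the comparison, read 5.97, 6.10 and 6.24 at 2, 6 and 10 h at 18 °C and 5.46, 5.28 and 5.13 at 25 °C. Every 18 °C array lay above every 25 °C array, and the gap widened from 0.50 at 2 h to 0.82 at 6 h and 1.10 at 10 h. The mean difference was 0.81 (SE 0.12, adjusted p = 0.135). With CA18 left out of the fit it passed (adjusted p = 0.0351). It also passed without CA14 and with arrays weighted by their quality (adjusted p = 0.0446 and 0.014).

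The other probe sets of tim gave another picture. The brightest one, 142154_at, read 7.66, 7.27 and 7.55 at 18 °C and 7.29, 7.74 and 7.69 at 25 °C, a difference of -0.08 (SE 0.13) with overlapping groups. A dim one, 151484_i_at, read 2.41, 3.54 and 4.10 at 18 °C and 2.23, 2.05 and 1.88 at 25 °C. Most of these values lay below the 20th percentile of their arrays (3.67 to 3.75 over the 12 arrays), and the difference was 1.30 (adjusted p = 0.678). The 3 probe sets thus disagree on tim, and which part of the transcript each reads is not given in the sources used here. The dim probe set passed only without CA2 (difference 1.76, adjusted p = 0.000600) and without both 2-h arrays (1.85, adjusted p = 0.00202).

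The transcript of vri, the repressor of Clk, read 9.09, 8.83 and 9.07 at 18 °C and 8.32, 8.57 and 8.57 at 25 °C. The groups did not overlap, and the mean difference was 0.51 (SE 0.13, adjusted p = 0.881). At 14, 18 and 22 h, with both days at 25 °C, the CA arrays were lower than the AA arrays by a mean difference of -0.36, which was -0.20 without CA18. The gap between these 2 differences was 0.87 (SE 0.18, adjusted p = 0.336), and 0.71 without CA18 (adjusted p = 0.269).

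The transcript of per read 7.36, 8.01 and 7.91 at 18 °C and 7.02, 6.67 and 7.35 at 25 °C. The lowest 18 °C array and the highest 25 °C array almost met, and the difference was 0.75 (SE 0.20, adjusted p = 0.9999). In the warm hours per was also higher on the CA day, by 0.48, so the cold hours exceeded the warm hours by 0.27 with a standard error of 0.29 (0.06 without CA18).

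The transcript of Clk, whose product drives per, tim and vri, was the lower one. It read 3.83, 3.38 and 3.61 at 18 °C and 4.13, 4.17 and 4.38 at 25 °C, near the 20th percentile of the arrays. The groups did not overlap and the difference was -0.62 (SE 0.12, adjusted p = 0.273). The warm hours gave -0.26, in the same direction.

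Of the 15 clock genes measured, 9 were higher and 6 lower at 18 °C, and none passed. In this count tim was taken by its brightest probe set, 142154_at, and so stood among the 6 lower. At an unadjusted p under 0.05 there were vri, per and slmb above, and Clk and cry below, where 1.43% of all genes were higher and 2.14% lower. The median of the list was 0.12, against -0.0023 for all genes, and it was 0.29 at 2 h but -0.01 at 6 h and -0.05 at 10 h. Without CA6, AA2 and AA6, which carried most signal from other body parts, 7 were higher and 8 lower and the median was -0.07. slmb, which encodes an F-box protein that marks PER for breakdown, read 4.47, 4.35 and 4.51 at 18 °C against 4.18, 4.17 and 4.08, a difference of 0.30 (SE 0.11). In the warm hours slmb was also higher on the CA day, by 0.18 (0.05 without CA18). Its contrast of cold with warm hours was 0.12 (SE 0.16), or 0.26 without CA18. cry, the blue-light photoreceptor gene, read 7.53, 7.05 and 6.94 against 7.58, 7.54 and 7.49. Its gap was -0.05 at 2 h, -0.50 at 6 h and -0.55 at 10 h.

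The remaining clock genes overlapped between the groups except Pdf. Pdp1, the activator of Clk, had gaps of 0.61 at 2 h and -0.14 at 6 h, and averaged 0.22. cwo, a repressor of CLK targets, averaged 0.22 with 0.59 at 2 h and -0.05 at 10 h. The kinase gene dco averaged 0.24. The phosphatase subunit gene tws averaged 0.12, and the neuropeptide receptor gene Pdfr 0.14. wdb averaged 0.003. cyc, the partner of Clk, averaged -0.07. jet, an F-box gene for TIM breakdown, averaged -0.08. Pdf, the clock neuropeptide gene, read 6.89, 6.98 and 6.92 at 18 °C and lay from 6.98 to 7.02 at 25 °C, a difference of -0.07 (SE 0.06).

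**Figure D1:**
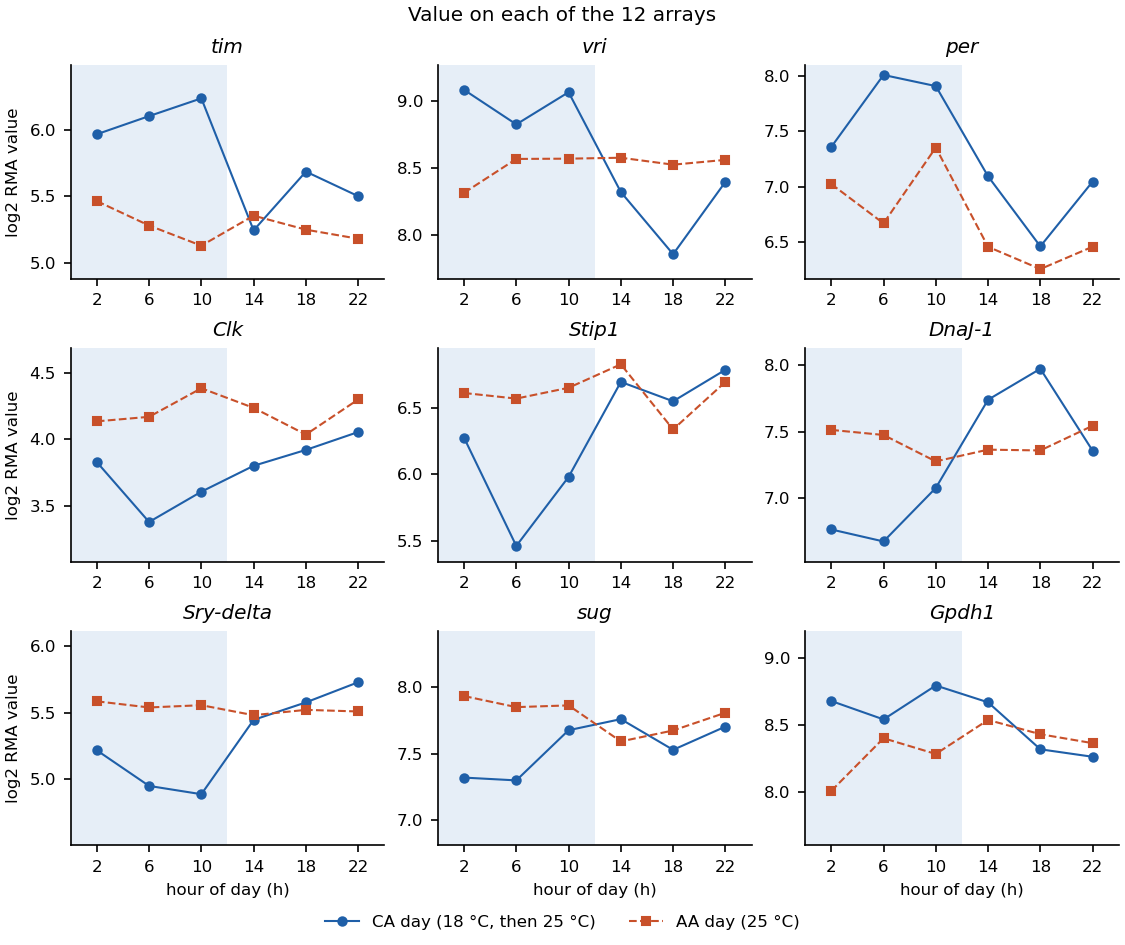
RMA values (log2, vertical axis) of 9 genes at each hour of day (h, horizontal axis) on the CA day (blue circles) and the AA day (orange squares), 1 array per point; shading marks the cryophase of the CA day and the same clock hours of the AA day, and the tim panel shows probe set 151485_s_at. In the shaded hours tim, vri, per and Gpdh1 lay higher on the CA day and Clk, Stip1, DnaJ-1, Sry-delta and sug lay lower.

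Heat shock protein and chaperone genes were mostly lower at 18 °C. Of 36 measured, 32 were lower and 4 higher, against 48.9% higher among all genes, with a median of -0.12. None passed the test. At an unadjusted p under 0.05, 5 were lower and none higher, where 2.14% of all genes were lower and 1.43% higher. The same 5, Stip1, DnaJ-1, mora, CCT5 and Hsp68, were the ones whose 18 °C arrays all lay below the 25 °C arrays, 5 of 36 genes where 4.14% of all genes did.

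Stip1 encodes the co-chaperone that joins Hsp70 to Hsp90. It read 6.27, 5.46 and 5.98 at 18 °C and a steady 6.61, 6.57 and 6.65 at 25 °C. The gap was -0.33 at 2 h, -1.10 at 6 h and -0.67 at 10 h, with a mean of -0.70 (SE 0.17, adjusted p = 0.825). DnaJ-1, an Hsp40 gene, read 6.77, 6.68 and 7.08 against 7.51, 7.48 and 7.28. Its gap ran the other way in time, from -0.75 at 2 h to -0.20 at 10 h, and averaged -0.58 (SE 0.14, adjusted p = 0.825).

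The other 3 had smaller gaps. mora read 4.65, 4.53 and 4.59 at 18 °C against 4.83, 5.10 and 4.91 at 25 °C, a difference of -0.36 (SE 0.10). CCT5, a subunit of the cytosolic chaperonin, read 5.83, 5.46 and 5.59 against 5.93, 5.91 and 5.86, a difference of -0.27 (SE 0.10). Hsp68, an inducible Hsp70 gene, lay within a narrow band of 4.62 to 4.66 at 18 °C and 4.78 to 4.89 at 25 °C, a difference of -0.20 (SE 0.09). In the warm hours Hsp68 was higher on the CA day by 0.41, with CA18 the highest array, and by 0.32 without CA18. The contrast between cold and warm hours was -0.60 for this gene (SE 0.12, adjusted p = 0.314).

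The 31 chaperone genes above that p lay between -0.32 and 0.16, and 27 of them were lower at 18 °C. Hsp60A, the mitochondrial chaperonin gene, was at the low end with -0.32 (SE 0.16), which came from -0.28 at 6 h and -0.70 at 10 h beside 0.01 at 2 h. Hsc70-4, the abundant constitutive Hsp70 gene, was 0.12 higher with overlapping groups. CaBP1, a protein disulfide isomerase gene, averaged -0.31.

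The chaperone pattern was carried by 2 of the 3 hours. At 2 h, 16 of the 36 were lower with a median of 0.015, at 6 h 26 were lower with a median of -0.24, and at 10 h 29 were lower with a median of -0.16. In the warm hours the CA arrays were the higher ones for 26 of the 36 genes, with a median of 0.08. Leaving out both 6-h arrays gave 26 lower and a median of -0.10. Leaving out CA6, AA2 and AA6 gave 27 lower and a median of -0.08, with AA10 as the lone 25 °C array.

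**Figure D2:**
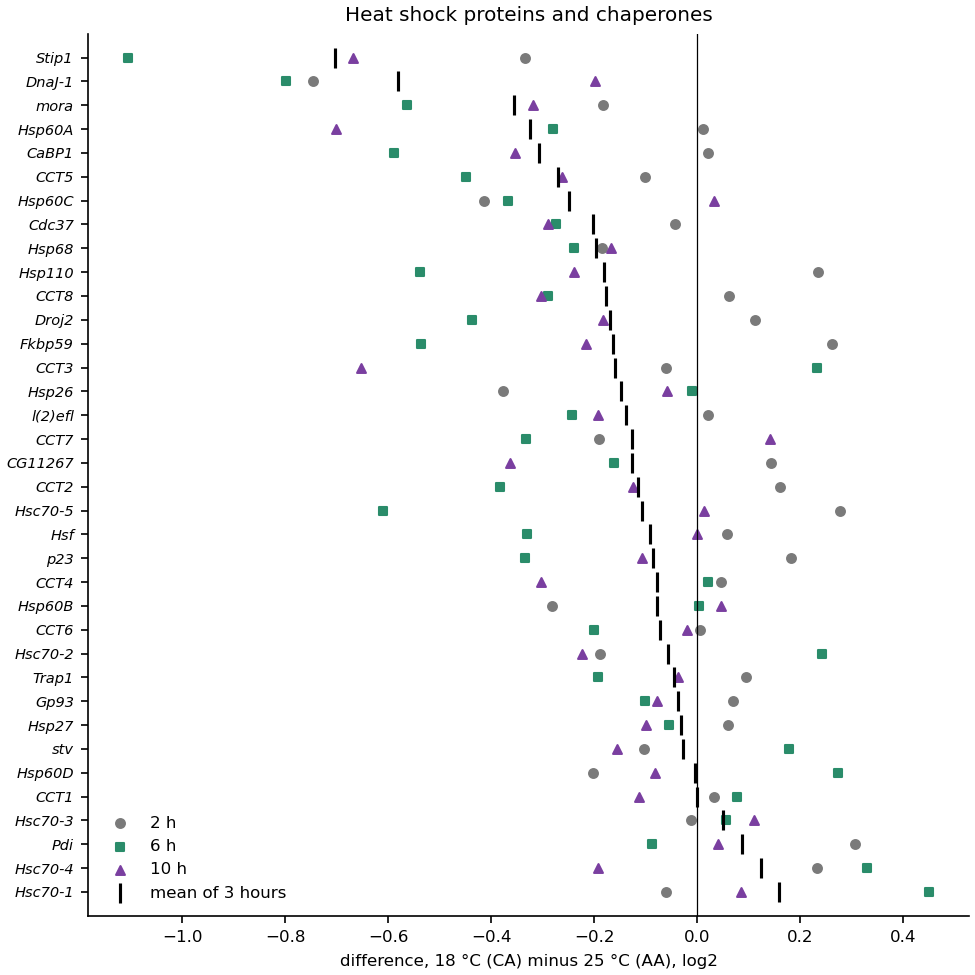
Difference between the CA array at 18 °C and the AA array at 25 °C (log2, horizontal axis) for each of 36 heat shock protein and chaperone genes (rows) at 2 h (grey circles), 6 h (green squares) and 10 h (purple triangles), with the mean of the 3 hours as a bar. Of the bars, 32 lie left of 0, while the 2-h circles are split with 16 on the left.

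Among the genes with the smallest p values, those higher at 18 °C after tim were CG34376, cpo, CG10962 and stas. cpo, couch potato, encodes an RNA-binding protein known for its link to reproductive diapause in flies. Its probe set 150110_at read 6.86, 7.07 and 6.99 at 18 °C and 6.57, 6.56 and 6.58 at 25 °C. The 25 °C arrays were almost level and all 18 °C arrays lay above them, with a difference of 0.40 (SE 0.07, adjusted p = 0.204). Both other cpo probe sets were also higher, each by 0.24.

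CG34376 read 6.40, 6.49 and 6.41 against a range of 5.99 to 6.08, a difference of 0.41 (SE 0.07, adjusted p = 0.181), while its other probe sets gave 0.10 and 0.09. The warm hours went the other way for this probe set, with a mean of -0.20. The contrast between cold and warm hours was 0.61 (SE 0.10), and its adjusted p of 0.252 in limma was the smallest of that contrast, shared with 3 other probe sets (those of klar, Pgk and futsch). CG10962 read 5.72, 5.68 and 5.78 against 5.15, 5.31 and 5.20, a difference of 0.51 (SE 0.10, adjusted p = 0.273), with 0.12 for its other probe set. In the warm hours its first probe set was also higher on the CA day, by 0.26, and the contrast was 0.25 (SE 0.14). stas, which encodes a membrane protein, read 4.05, 4.19 and 4.37 against 3.45, 3.72 and 3.74, a difference of 0.57 (SE 0.12, adjusted p = 0.622).

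The other 7 of the first 12 genes higher at 18 °C had adjusted p values from 0.775 upward. CG10621 differed by 0.65, from 6.30, 6.94 and 6.35 at 25 °C to 7.17, 7.28 and 7.09 at 18 °C. CG5853 differed by 0.67, with gaps of 0.99, 0.19 and 0.83 at the 3 hours, and in the warm hours the CA arrays were lower (-0.43, or -0.28 without CA18). CG13315, one of the brighter transcripts, read 11.08, 11.20 and 11.73 at 18 °C and 10.30, 10.74 and 10.59 at 25 °C, a difference of 0.79. REPTOR, a transcription factor gene of the TORC1 pathway, differed by 0.34, and Oatp74D, the ecdysone importer gene, by 0.56. Dh44-R2, a receptor gene for the diuretic hormone DH44, differed by 0.32, with 0.03 for its other probe set. vri completed the 12.

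Among the genes lower at 18 °C, Sry-delta, which encodes a zinc finger transcription factor, had the smallest p. It read 5.22, 4.95 and 4.89 at 18 °C and 5.58, 5.54 and 5.56 at 25 °C. The 25 °C arrays were nearly level and the 18 °C arrays moved away from them with the hour, by -0.37, -0.59 and -0.67. The mean difference was -0.54 (SE 0.09, adjusted p = 0.187), and in the warm hours it was 0.08.

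Cyp6w1, a cytochrome P450 gene, read 8.23, 7.82 and 7.81 against 8.41, 8.69 and 8.59, a difference of -0.60 (SE 0.13, adjusted p = 0.633). CG3348 differed by -0.76 with gaps of -0.20, -0.96 and -1.12 at the 3 hours. One probe set of CG10077 differed by -0.69 and the other by 0.12 in the opposite direction. Sidpn, a bHLH repressor gene, read 6.94, 6.88 and 6.95 at 18 °C and 7.33, 7.29 and 7.70 at 25 °C, a difference of -0.51. Cbp20, the small subunit of the nuclear cap-binding complex, was one of the most even, with gaps of -0.28, -0.30 and -0.27 and a standard error of 0.07. bip1 and CG6689 differed by -0.31 and -0.30.

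Some genes of sugar and lipid handling were past the unadjusted p. They were 2 higher and 1 lower of 18 trehalose and glycogen genes, and 2 higher of 27 lipid genes. Of all genes, 1.43% were higher and 2.14% lower past that p. sug, sugarbabe, encodes a transcription factor that responds to dietary sugar. It read 7.32, 7.30 and 7.68 at 18 °C and 7.93, 7.85 and 7.86 at 25 °C, a difference of -0.45 (SE 0.10, adjusted p = 0.775). Treh, which encodes the enzyme that splits trehalose, read 8.01, 7.59 and 7.81 at 18 °C and was level at 7.42, 7.43 and 7.46 at 25 °C. Its difference was 0.36 (SE 0.12), and the trehalose transporter gene Tret1-1 differed by 0.39 (SE 0.13) on its brighter probe set. The groups did not overlap for these 3 probe sets. The other probe set of Tret1-1 overlapped, with 5.44, 4.81 and 4.94 against 5.14, 4.87 and 4.72, a difference of 0.15 (SE 0.23). Of the 18 trehalose and glycogen genes, 13 were higher and 5 lower with a median of 0.03. The count turned to 8 higher and 10 lower without both 10-h arrays, and to 9 and 9 without AA10.

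Gpdh1, the glycerol-3-phosphate dehydrogenase gene, read 8.68, 8.54 and 8.80 at 18 °C and 8.01, 8.40 and 8.28 at 25 °C, a difference of 0.44 (SE 0.12). ACC, the enzyme that makes malonyl-CoA for fatty acid synthesis, read 8.99, 8.63 and 8.84 against 8.40, 8.59 and 8.46, a difference of 0.34 (SE 0.11), with 0.12 for its other probe set. Both gaps were smallest at 6 h. Of 27 lipid genes, 17 were higher and 10 lower with a median of 0.08, made up of 0.26 at 2 h, -0.06 at 6 h and 0.10 at 10 h. In the warm hours 9 were higher on the CA day and 18 lower. Without CA6, AA2 and AA6 the cold-hour count was 21 higher and 6 lower, and without CA2 it was 13 higher and 14 lower.

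Of 17 genes of insulin, AKH and nutrient signalling, 13 were higher and 4 lower, with a median of 0.08. The 18 °C arrays lay above all 25 °C arrays for 4 of them and below for none, where 3.78% of all genes lay above and 4.14% below. The GATA factor gene srp differed by 0.45 (SE 0.19), and Hnf4, a nuclear receptor gene of lipid use, by 0.24 (SE 0.11). Without CA6, AA2 and AA6 the count was 8 higher and 9 lower. Of 13 fat body marker genes, 10 were higher at 18 °C with a median of 0.03. Among them was the storage protein gene Lsp2, by 0.26 with overlapping groups. Without both 10-h arrays the count was 7 higher and 6 lower. Obp99a, an odorant-binding protein gene, differed by 0.54 (SE 0.16) with overlapping groups, and 24 of the 36 genes of its family were higher with a median of 0.06. The bulk samples cannot tell more cells of a type from more RNA per cell.

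Genes of the mitochondrial ribosome leaned lower, 50 of 66 with a median of -0.05. Past the unadjusted p were mRpL9, mRpL52, mRpS7 and mRpL4, with differences of -0.38, -0.24, -0.20 and -0.20. These were 4 of 66 genes, where 2.14% of all genes were lower past that p. The lean came from 6 h, where 62 of 66 were lower, and from 10 h with 48. At 2 h 54 were higher, and without both 6-h arrays 39 were higher and 26 lower. Without CA6, AA2 and AA6, 46 were lower. The warm hours, with both days at 25 °C, gave a like lean, with 44 of 66 lower on the CA day and a median of -0.05. There mRpS7 and mRpL52 differed by -0.19 and -0.20, so the contrast of cold with warm hours was -0.01 for mRpS7 (SE 0.11) and -0.04 for mRpL52 (SE 0.12). Oxidative phosphorylation genes gave medians of 0.12 at 2 h, -0.18 at 6 h and -0.05 at 10 h over 74 genes, and without AA6 the overall lean turned to 41 higher and 33 lower. Cytosolic ribosomal protein genes gave 0.11, -0.14 and -0.01 over 38 genes, with 21 higher overall but 9 without AA2. Translation initiation and elongation factors were lower for 30 of 45 with a median of -0.05. At 2 h 28 of the 45 were higher with a median of 0.105, and the medians at 6 and 10 h were -0.13 and -0.13. Without both 6-h arrays 21 were higher and 24 lower.

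In the amine pathways, e and speck of 19 genes were lower past the unadjusted p, as were 2.14% of all genes. e, ebony, joins beta-alanine to dopamine, and speck encodes arylalkylamine N-acetyltransferase. e differed by -0.26 (SE 0.09) and speck by -0.43 (SE 0.19), and the median of the 19 genes was 0.01 (-0.01 without AA2). pug, a gene of folate metabolism, was 0.28 higher. Neuron markers had a median of 0.01 over 16 genes (-0.04 without CA10) and photoreceptor genes -0.05 over 20 (0.03 without CA6). Cytochrome P450 genes were split 40 higher and 43 lower, with Cyp4e3 above by 0.43 (SE 0.13) and Cyp12c1 below by a difference of -0.25 (SE 0.09) beside Cyp6w1. Past the unadjusted p, 1 of the 83 was higher and 2 lower, near the 1.43% and 2.14% of all genes. In the warm hours Cyp12c1 differed by -0.34 with both days at 25 °C, and the contrast was 0.09 (SE 0.13), or 0.01 without CA18. The list of cold, desiccation and Turandot genes had a median of -0.01 over 10 genes (0.07 without CA6), with none past the unadjusted p.

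Genes for voltage-gated channels and thermosensors were higher for 15 of 22, with medians of -0.07 at 2 h, 0.22 at 6 h and -0.06 at 10 h. The count turned to 8 higher and 14 lower without CA6, and to 9 and 13 without AA6. slo, which encodes a calcium-activated potassium channel, was the one past the unadjusted p, 1 of 22 where 1.43% of all genes were higher. It read 5.26, 5.24 and 5.42 at 18 °C and 4.93, 5.01 and 5.23 at 25 °C, a difference of 0.25 (SE 0.09). Splicing regulators were higher for 17 of 29, or 13 of 29 without AA6, and Doa, a kinase gene for splicing factors, differed by 0.30 (SE 0.12) with overlapping groups. Tl, the Toll receptor gene, differed by 0.20 (SE 0.08), and 17 of 28 genes of its immune list were higher. Galphaq, the G protein gene of phototransduction, read 3.90, 4.02 and 4.41 against 3.77, 3.65 and 3.94, near the 20th percentile of the arrays. Doa, Tl and Galphaq were each the 1 gene of their list past the unadjusted p. Cuticle protein genes were higher for 62 of 101 with a median of 0.02, or 48 of 101 without AA10. The 1 past the unadjusted p, Cpr49Af, went the other way with a difference of -0.18 (SE 0.08). It was 1 of 101 genes, where 2.14% of all genes were lower past that p. Ovary and eggshell genes were higher for 24 of 31 with a median of 0.05, and their list mean was 4.96, 4.996 and 4.97 at 18 °C and 4.99, 4.91 and 4.88 at 25 °C.

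**Figure D3:**
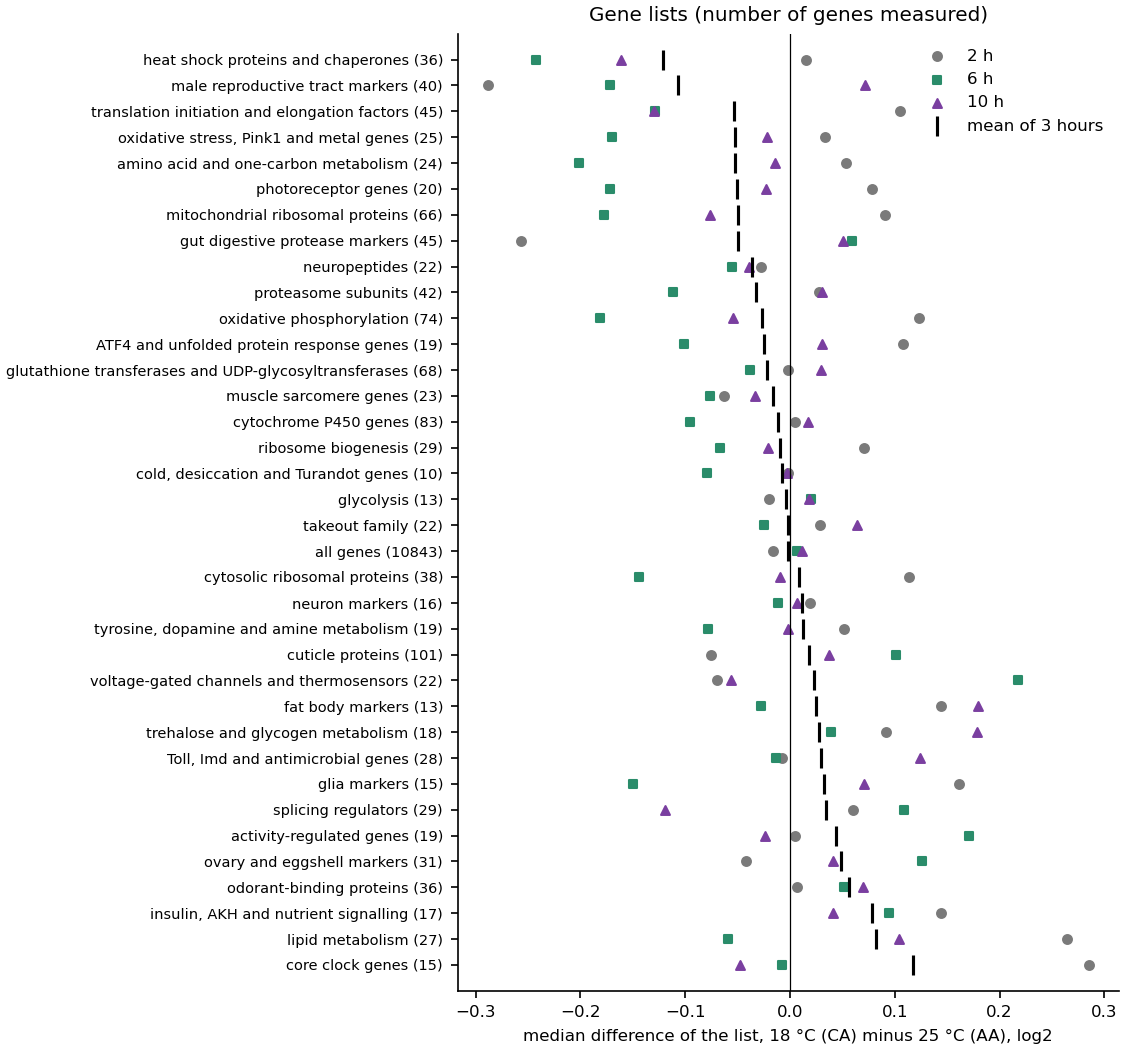
Median difference between 18 °C and 25 °C (log2, horizontal axis) of each gene list (rows, with the number of genes measured) at 2 h (grey circles), 6 h (green squares) and 10 h (purple triangles), with the median of the 3-hour mean as a bar. Chaperones end the list at the low side with -0.12 and clock genes at the high side with 0.12, and for many lists the 2-h and 6-h points lie on opposite sides of 0.

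The 3 hours did not repeat each other across the genome. The differences at 2 and 6 h had a correlation of -0.25 across the 13966 probe sets, those at 2 and 10 h 0.12, and those at 6 and 10 h -0.04. These correlations are across probe sets, which are not independent, and no arrays are shared between hours. The spread of the differences was 0.20 at 2 h, 0.23 at 6 h and 0.18 at 10 h (SD). With 1 array on each side, the values at a single hour have no replicate check and no test.

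At 2 h, 1 probe set, with no gene symbol, was over 1 higher at 18 °C (0.00716%) and 19 were over 1 lower (0.136%). Of the 19, 6 are on the list of gut digestive genes and 4 on that of the male reproductive tract. Cyp4g1, the P450 gene for cuticular hydrocarbons in oenocytes, read 4.50 on CA2 and 7.87 on AA2, a gap of -3.37. It was also high on CA6 and AA6 (8.29 and 9.05) and low on CA10 and AA10 (4.66 and 4.85). The gut protease gene Jon65Aiv read 6.78 on CA2 and 8.30 on AA2. CG12374 read 4.37 and 6.28 on this pair, and both genes were high on CA6 and AA6 and low on CA10 and AA10. These are the arrays on which the body-part lists were high and low. CG5853 and CG10621 were among the named genes furthest above at 2 h with 0.99 and 0.87. The probe set 142212_at of MFS14, a transporter-family gene, read 7.18 on CA2 and 6.28 on AA2 but was lower at 18 °C at 6 h (6.11 and 6.69) and 10 h (6.37 and 6.61). The other MFS14 probe set read 5.55 on CA2 and 5.54 on AA2, and its gap was at most 0.01 at any hour.

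**Figure D4:**
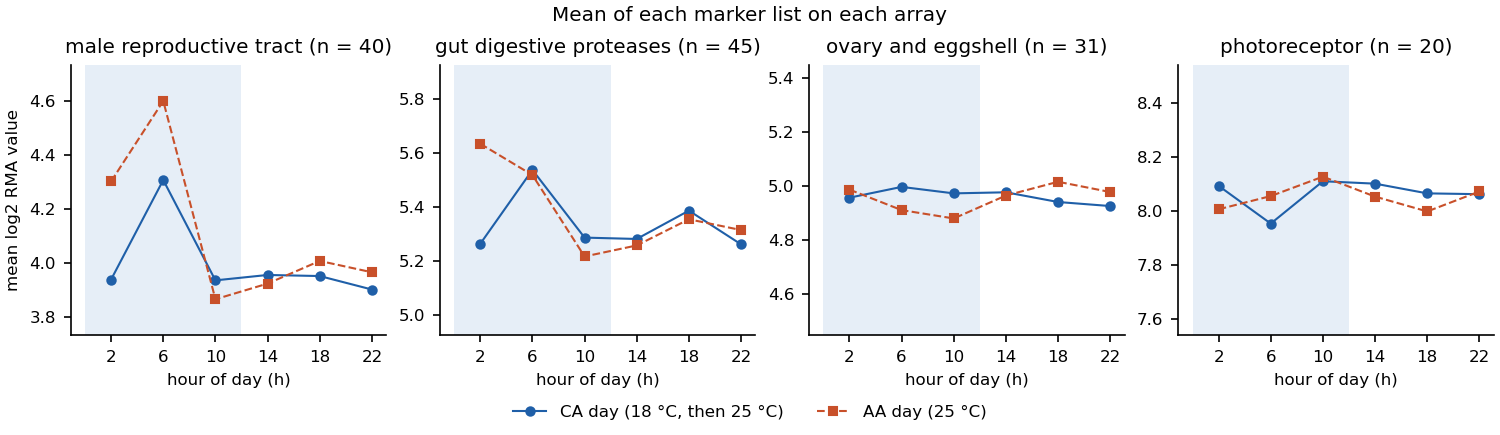
Mean RMA value (log2, vertical axis) of 4 marker lists on each array by hour of day (h, horizontal axis), for the CA day (blue circles) and the AA day (orange squares), 1 array per point, with the cryophase hours shaded and every panel spanning 1 log2 unit. The male reproductive tract list is high on CA6, AA2 and AA6, from 4.30 to 4.60, and at most 4.01 on all other arrays, while the photoreceptor list stays between 7.95 and 8.13.

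At 6 h, 21 probe sets were over 1 higher at 18 °C (0.15%) and 14 over 1 lower (0.1%). Of the 21, 17 had the opposite direction at both 2 and 10 h. osy read 6.53 on CA6 and 4.87 on AA6 on its probe set 150656_at, CG32687 read 8.52 and 7.06 on its probe set 144807_at, and per was one of the 21 with 8.01 and 6.67. bel, which encodes an RNA helicase, had a gap of 1.41. On the lower side, 4 of the 14 were genes of the male tract list, with Stip1 at -1.10. bgm, a long-chain acyl-CoA synthetase gene, read 6.49 on CA6 and 7.79 on AA6, and CG1416 read 4.37 and 5.53.

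At 10 h, 5 probe sets were over 1 higher (0.0358%) and 13 over 1 lower (0.0931%). The higher ones were the 2 tim probe sets with a positive difference, CG13315, CtsL3 and CG5966. CtsL3, a cathepsin L protease gene, read 5.72, 6.53 and 6.72 at 18 °C and 5.46, 5.92 and 5.51 at 25 °C, a mean difference of 0.69 (SE 0.28) with overlap between the groups. CG5966 read 6.65 on CA10 and 5.34 on AA10 but lay lower at 18 °C at 6 h (5.31 and 5.60). Among the lower ones, phu read 4.40 on CA10 and 5.52 on AA10, with a like gap at 6 h (4.48 and 5.58) but not at 2 h (5.83 and 5.67).

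A group of genes turned over between 6 and 10 h. The osy probe set 150656_at read 5.18, 6.53 and 5.54 at 2, 6 and 10 h at 18 °C and 5.55, 4.87 and 6.60 at 25 °C, so its gap went from 1.67 at 6 h to -1.07 at 10 h. The swing was smaller on the other osy probe sets, from 0.85 to -0.70 on 151089_at and from 0.46 to -0.14 on 152552_at. CG32687 went from 1.46 to -1.04 on 144807_at, and CG1648 from 1.28 to -1.26. In the cold hours all 3 read higher on CA6 and AA10 than on AA6 and CA10, so their mean over the hours was near 0 (0.08, 0.02 and -0.16). At 14, 18 and 22 h the CA day was higher for osy by 1.19 on 150656_at (0.55 and 0.08 on the others, the latter 0.25 without CA18), for CG1648 by 1.13 and for CG32687 by 0.97. CA22 read as high as CA6 for osy (6.56) and CG1648 (9.36), and 8.15 for CG32687.

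**Figure D5:**
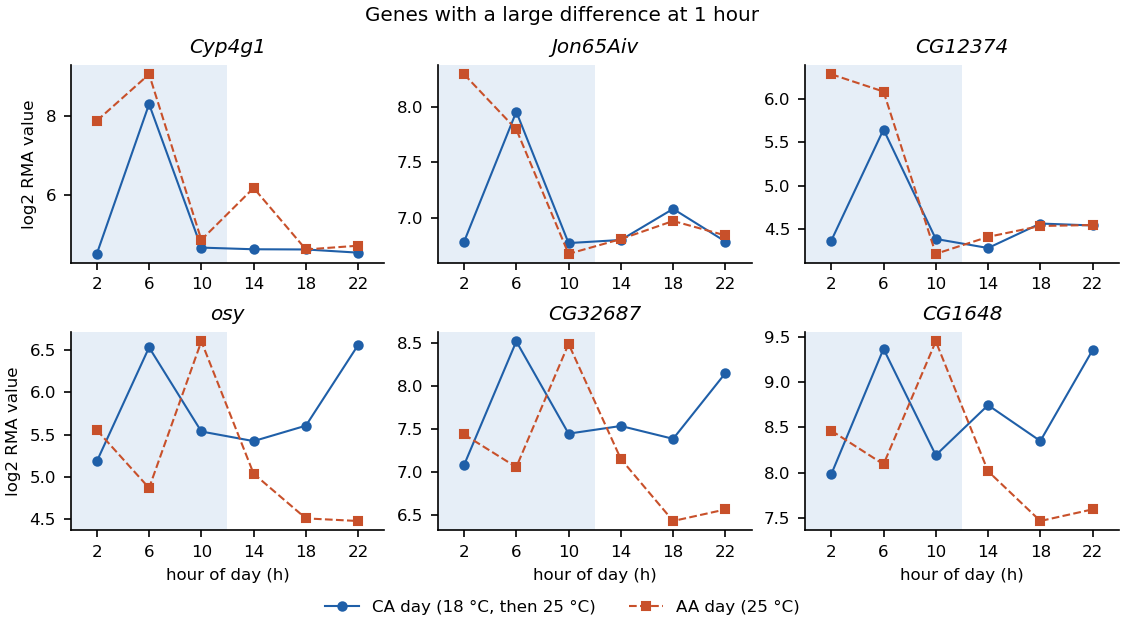
RMA values (log2, vertical axis) of 6 genes chosen for a gap at 1 hour, by hour of day (h, horizontal axis), on the CA day (blue circles) and the AA day (orange squares), 1 array per point, with the cryophase hours shaded, CG32687 shown by probe set 144807_at and osy by 150656_at. Cyp4g1, Jon65Aiv and CG12374 are high on CA6, AA2 and AA6, and osy, CG32687 and CG1648 are high on CA6, AA10 and CA22.

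Both days were at 25 °C at 14, 18 and 22 h, and the arrays of those hours are not shared with the cold hours. The CA arrays at 14, 18 and 22 h follow 12 h at 18 °C while the AA arrays follow constant 25 °C, so at these hours an after-effect of the cold and the day cannot be told apart. In the test of the cold-hour difference against the warm-hour difference no probe set passed (0.0%). At an unadjusted p under 0.05 there were 624 with a positive contrast (4.47%) and 480 with a negative one (3.44%), or 474 and 465 without CA18. Among the genes above, the contrast was 1.10 for CG5853 (SE 0.22, adjusted p = 0.314), -0.85 for DnaJ-1 (SE 0.20, adjusted p = 0.485; warm hours 0.27, or 0.13 without CA18) and -0.62 for Sry-delta (SE 0.13, adjusted p = 0.367). For tim 151485_s_at it was 0.59 (SE 0.17, adjusted p = 0.574), and the warm hours themselves differed by 0.21 (0.11 without CA18). The day-to-day difference in the warm hours passed the test for 2 probe sets, that of the glycolysis gene Pgk (0.81, adjusted p = 0.0202) and 1 with no gene symbol. Both results include CA18, and their values without it are not given here. Pgk differed by -0.04 in the cold hours.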

How the data were processed

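RNA from heads of tim01 flies was hybridised to 12 Affymetrix arrays (Drosophila Genome 1). The deposited values are log2 signals that the authors made with RMA, which background-corrects and quantile-normalizes the arrays and sums the probes of a set. The RMA version is not given in the sources used here, and the number of arrays limits the precision. Control probe sets (44 of 14010) were left out. Of the other 13966, 12442 had 1 gene symbol, 327 several and 1197 none in the platform annotation, and 12393 were updated to RefSeq Release 6 symbols. Groups came from the labels. limma 3.58.1 in R 4.3.3, tested on simulated data, fitted 4 group means over all 12 arrays, with Benjamini-Hochberg adjustment over all probe sets. P-values measure the spread between hours. Lists used the brightest probe set of a gene, and wrongly matched symbols were removed after values had been seen. The members and lists were chosen with earlier results of these data known. Named genes are the 12 probe sets with the smallest p in each direction among those with 1 symbol and a value over the array's 20th percentile on most arrays, the 3 largest differences each way at each hour under the same filter, clock and chaperone genes, and list members with an unadjusted p under 0.05. Others (bel, EbpII, Pgk, klar and futsch) were chosen after their values were seen. Alternatives were other normalizations, filters, weights, variance models, a replicate block and left-out arrays.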

Additional observations from a re-analysis of the deposited data

How the results depend on the processing

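No probe set passed in the main comparison under most alternatives. The count was 1 with array weights, 1 without both 2-h arrays (chosen after seeing the data), and from 0 to 1 without each array in turn, and each time the probe set was one of tim. At an unadjusted p under 0.05, array weights gave 394 higher and 421 lower. Leaving out each array gave 176 to 378 higher and 189 to 421 lower, the most without AA2. Leaving out both arrays of an hour, chosen after seeing the data, gave 359 higher and 519 lower without 2 h, and 144 higher without 10 h. For the contrast with the warm hours, the count that passed was 0 to 2 without each array (2 without CA14, 1 without CA2 and 1 without CA22) and 1 without both 2-h arrays. At an unadjusted p it ranged from 352 to 952 higher and from 281 to 745 lower without each array, with the lowest counts without CA10 and the highest without CA14. It was 757 lower without both 6-h arrays, and 298 higher and 228 lower without both 10-h arrays. With array medians made equal, 2 probe sets in place of 1 were over 1 higher at 2 h. The causes were not tested.

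Of 73 differences followed for single probe sets, 66 kept their direction under every alternative run, at most 24 for each. Where the groups do not overlap, leaving out arrays cannot turn the sign. This holds for all of the 12 probe sets with the smallest p in each direction, so the count of 66 does not measure stability. Of 35 list medians, 13 kept their sign under 9 alternatives (each of the 6 arrays left out, both normalizations, all probe sets of a gene), among them chaperones (-0.18 to -0.06) and clock genes (0.02 to 0.16). Of these 13, leaving out CA6, AA2 and AA6 turned the clock (-0.07), insulin signalling (-0.0015), male tract (0.06) and proteasome (0.02) medians. Leaving out both 6-h arrays turned the mitochondrial ribosome (0.02), proteasome (0.01) and oxidative stress (0.03) medians. Without both 6-h arrays the sign turned for cyc (0.0125), tim 142154_at (0.12), CG10077 142516_at (-0.17) and Dh44-R2 147095_at (-0.021). Without CA6, AA2 and AA6 it turned for dco (-0.11), Hsc70-4 (-0.13) and CG10077 142516_at (-0.30), with the lone 25 °C array assumed to vary like the others. Leaving out each array gave -0.22 to 0.0332 for tim 142154_at, -0.0618 to 0.26 for CG10077 142516_at, -0.0162 to 0.0548 for Dh44-R2 147095_at and -0.0006667 to 0.19 for tws.

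With the hour of day as a replicate block no probe set passed, as in the main fit. The residuals of same-hour arrays correlated between -0.23 and 0.25, so the hours did not pair the arrays.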
